A study of Homo sapiens with 5 samples.

Results

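Deubiquitinases are the enzymes that cut ubiquitin from proteins, and 62 deubiquitinase genes were followed in irradiated LNCaP cells with and without a hairpin against RB1. The genes were taken by symbol. They comprise every measured ubiquitin-specific protease (symbols that start with USP and a digit), the OTUD and OTUB genes of the ovarian tumour (OTU) family, the UCHL genes of the ubiquitin C-terminal hydrolase (UCH) family, and the Josephin genes ATXN3, ATXN3L, JOSD1 and JOSD2. Of 14812 genes with a named probe set, 63 symbols met this rule. USP17L12 and USP17L9P, 2 near-identical copies whose log2 intensities differed by less than 0.005 on every array, were counted once under the first name. USP16 and USP25 on chromosome 21, 4 antisense or divergent transcripts and USPL1, which has no digit after USP, lay outside the rule. The rule also takes in USP32P1, a pseudogene, and USP6NL, which encodes a GTPase activator of RAB5 and not a protease. USP9X, USP11, OTUB1 and OTUB2 were not analysed here, since no named probe set carried them. The same held for USP10, USP27X, USP32, USP36 and USP41 of the lists used below.

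LNCaP is an established, androgen-responsive human prostate cancer line. Cells carrying a retroviral short hairpin RNA against RB1 (shRB, 3 arrays) were compared with cells carrying a scrambled hairpin (shControl, 2 arrays). Both were selected with puromycin, grown in 5% serum, exposed to 10 Gy of ionizing radiation and harvested 24 h later. No array is of unirradiated cells, so a response to radiation cannot be read from them. Whether the cells were cycling was not tested. The labels give neither the number of hairpins or clones nor separate cultures for the arrays of a group, so p-values measure the spread between these arrays, which may be technical.

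Ubiquitin is joined to lysines of a target singly or in chains by a cascade of activating, conjugating and ligating enzymes, and deubiquitinases reverse this step. They rescue proteins from the proteasome, edit the signals that recruit repair factors to broken DNA, and strip ubiquitin from histones H2A and H2B. In prostate cells several of them act on the androgen receptor or on the MDM2 and p53 pair. RB1 restrains the E2F transcription factors, which drive genes of the G1/S transition, while the CHR element is a promoter sequence of genes active in G2 and mitosis.

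Since RB1 is known as a brake on E2F factors, the promoters of the deubiquitinase genes were read for E2F strings (TTTGGCGC, TTTGCCGC, TTTCGCGC or TTTCCCGC) and for the CHR string TTTGAA, each on both strands. RefSeq windows of 300 bases on GRCh38.p14, from 250 bases before a start to 50 after it, were found for 45 of the 63 symbols. The USP17L copies had none, so the signal that passed the test below has no promoter reading. An E2F string stood in the window of 1 of these 45 genes (2.22%), against 5.38% of the 10736 array genes with a window, and the CHR string in 6 of them (13.3%), against 15.3%. The single window with an E2F string is that of OTUD7B, a negative regulator of NF-kappaB signalling, at chr1:150010677-150010976 on the minus strand. The string lies there on the opposite strand, 150 bases before the start. Of the genes with a CHR string, USP1 had 2 in 1 of its 2 windows, at chr1:62436799-62437098 on the plus strand. Its other window, at chr1:62436145-62436444, held no E2F or CHR string. The window of USP12, the member with the highest difference, at chr13:27171762-27172061 on the minus strand, held neither. The windows of OTUD7B and USP12 and the USP1 window with the strings are printed 5′ to 3′, with these strings in capitals.
OTUD7B: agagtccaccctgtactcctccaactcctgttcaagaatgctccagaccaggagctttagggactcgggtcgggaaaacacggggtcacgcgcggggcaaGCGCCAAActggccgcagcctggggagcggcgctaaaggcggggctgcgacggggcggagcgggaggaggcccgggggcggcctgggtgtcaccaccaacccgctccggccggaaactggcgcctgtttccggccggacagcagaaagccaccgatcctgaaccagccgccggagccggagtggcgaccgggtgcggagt
USP1: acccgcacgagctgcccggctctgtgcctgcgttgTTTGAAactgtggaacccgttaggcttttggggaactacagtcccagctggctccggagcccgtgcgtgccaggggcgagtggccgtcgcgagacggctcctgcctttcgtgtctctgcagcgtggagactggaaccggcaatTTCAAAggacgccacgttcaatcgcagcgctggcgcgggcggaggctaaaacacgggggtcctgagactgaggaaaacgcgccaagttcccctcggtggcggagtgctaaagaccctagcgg
USP12: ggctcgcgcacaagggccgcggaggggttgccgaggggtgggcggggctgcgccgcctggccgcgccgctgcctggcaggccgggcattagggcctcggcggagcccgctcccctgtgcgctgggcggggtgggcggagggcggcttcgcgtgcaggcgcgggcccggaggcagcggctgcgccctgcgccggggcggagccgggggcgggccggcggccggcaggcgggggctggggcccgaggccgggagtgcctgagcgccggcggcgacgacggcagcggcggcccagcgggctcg
A match describes these letters only, and binding was not measured.

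RB1, the target of the hairpin, had log2 intensities of 5.16, 5.28 and 5.20 on the shRB arrays, against 5.81 and 5.70 on the shControl arrays. Every shRB array was lower, yet the difference of -0.54 did not pass the test over all genes (limma, adjusted p = 0.0967). All levels below are log2 intensities of the deposited values, whose floor is 4, and all differences are shRB minus shControl on that scale. The luminal genes KLK3, KLK2, FOLH1, HOXB13, KRT8 and KRT18, 6 measured of 9 listed, ranged from 6.42 to 10.09 in shRB and from 6.05 to 10.17 in shControl, and none differed past the threshold. Summed over these 6 genes, the log2 levels were 50.91 to 51.15 in shRB and 51.12 to 51.34 in shControl. Markers of other cell types (VWF, DCN, KRT5, KRT14 and CHGA, 5 measured of 10 listed) ranged from 4.21 to 5.94 in shRB and from 4.18 to 6.41 in shControl, with sums of 24.32 to 25.35 in shRB and 24.84 to 25.26 in shControl. Among them VWF had 5.94, 5.76 and 5.13 in shRB, against 6.12 and 6.41 in shControl (difference -0.65, limma adjusted p = 0.1635). DCN was lower too, at -0.20, while KRT5, KRT14 and CHGA were higher, at 0.19, 0.05 and 0.27. None of these 5 passed, and their part in the results below was not tested. Over the 62 genes, pairs of shRB arrays correlated at r = 0.979 to 0.983 and the 2 shControl arrays at r = 0.954, while pairs across the groups ran from 0.936 to 0.958, so that 1 pair across the groups was at least as alike as the shControl pair. These values describe arrays sharing probe sets and base composition.

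One signal of the 62, that of the USP17L12 and USP17L9P copies, passed the test over all genes, and it was lower in shRB. It fell to 4.99, 5.05 and 4.93 on the shRB arrays, against 6.38 and 6.30 on the shControl arrays, so the groups did not overlap. The means were 4.99 ± 0.06 in shRB (SD, n = 3) and 6.34 ± 0.06 in shControl (SD, n = 2), a log2 difference of -1.35 (SE 0.14, 95% interval -1.67 to -1.04, limma adjusted p = 0.00129). That is 2.55-fold lower as deposited and 4.12-fold lower in the ratio of mean intensities after an apparent constant of 16 is taken off. The shRB level is close to the floor, so the size of the decrease in transcript is not known. In bulk RNA, fewer cells with a transcript and less of it per cell cannot be told apart. A share of 1.61% of the deubiquitinase genes was thus called, against 1.07% of all genes (159 of 14812), which is near the background.

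USP17L genes are copies of one intronless gene, repeated in tandem arrays, and the studied ones encode cytokine-induced proteases that affect cell growth. The RefSeq table lists 29 USP17L symbols, 23 on chromosome 4 and 6 on chromosome 8, and 4 symbols had named probe sets, all on chromosome 4. The probe sets of USP17L12 and USP17L9P differed by at most 0.0030 on any array, so they cannot be assigned to separate genes. USP17L15 had 4.62, 4.54 and 4.79 in shRB, against 5.34 and 5.31 in shControl. Its arrays did not overlap either, but the difference of -0.67 (SE 0.15) did not pass (limma adjusted p = 0.0631). USP17L10 had 4.43, 4.21 and 4.40 in shRB, against 4.26 and 4.75 in shControl, and here the groups overlapped (difference -0.15, SE 0.18). A second probe set named USP17L9P stayed near the floor in both groups, at 4.29, 4.08 and 4.12 in shRB and 4.31 and 4.04 in shControl. Its difference of -0.01 (SE 0.16) contrasts with -1.35 for the other probe set of the same symbol. Since the copies share most of their sequence, which of them gave the signal was not tested.

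**Figure D1:**
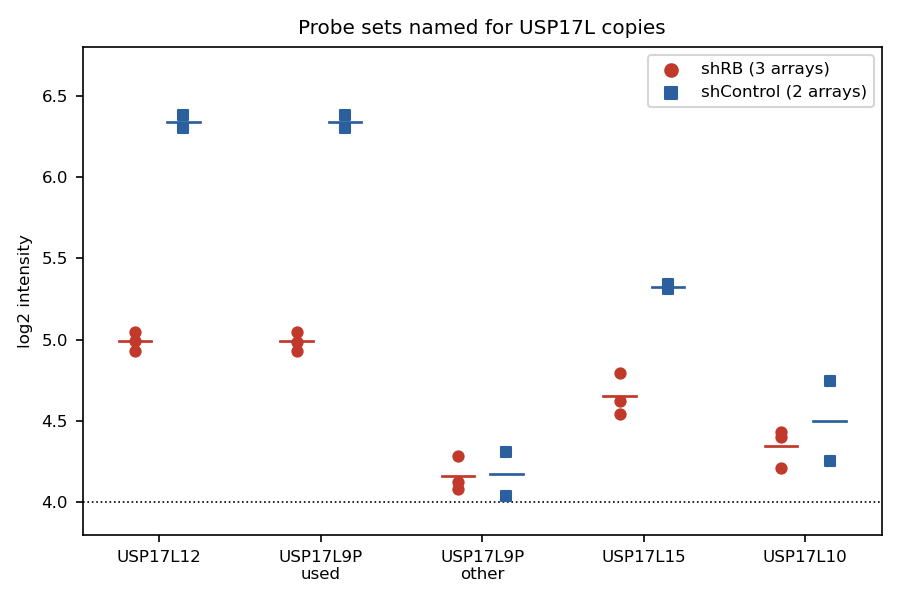
Log2 intensity on each array for the 5 probe sets named for USP17L copies, with shRB as circles and shControl as squares, group means as short bars and the floor of 4 dotted. The probe sets of USP17L12 and USP17L9P give the same values, at 4.93 to 5.05 in shRB and 6.30 to 6.38 in shControl, while the other USP17L9P probe set lies near the floor in both groups.

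The remaining 61 genes held no call in either direction. Differences were positive for 34 of the 62 genes (54.8%) and negative for 28, against 53.8% positive among all genes, and their median was 0.06 against 0.02 over all genes. The median size regardless of sign was 0.22, against 0.18. At an unadjusted p under 0.05 (limma), 8 genes were higher in shRB, or 12.9%, where 10.9% of all genes were, and 7 were lower, or 11.3%, where 7.22% were. Arrays of the groups did not overlap for 15 genes with higher shRB values (24.2%, against 20.6% of all genes) and 10 with lower ones (16.1%, against 15.4%). These shares are near those of all genes. Only 5 differences reached a size of 0.5, those of USP17L12, USP12, USP17L15, USP45 and USP47, and 35 were under 0.25. On the deposited scale, the 95% interval lay wholly within a 1.5-fold change either way for 31 of the 62 genes. For USP17L12 it lay wholly beyond that size. For the other 30 it crossed it, so that a change of 1.5-fold was not resolved. If a constant was added, this scale understates changes near the floor. After 16 is taken off, the ratio of mean intensities was 1.58-fold lower for USP17L10 and 1.55-fold higher for USP26, both among the 31.

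**Figure D2:**
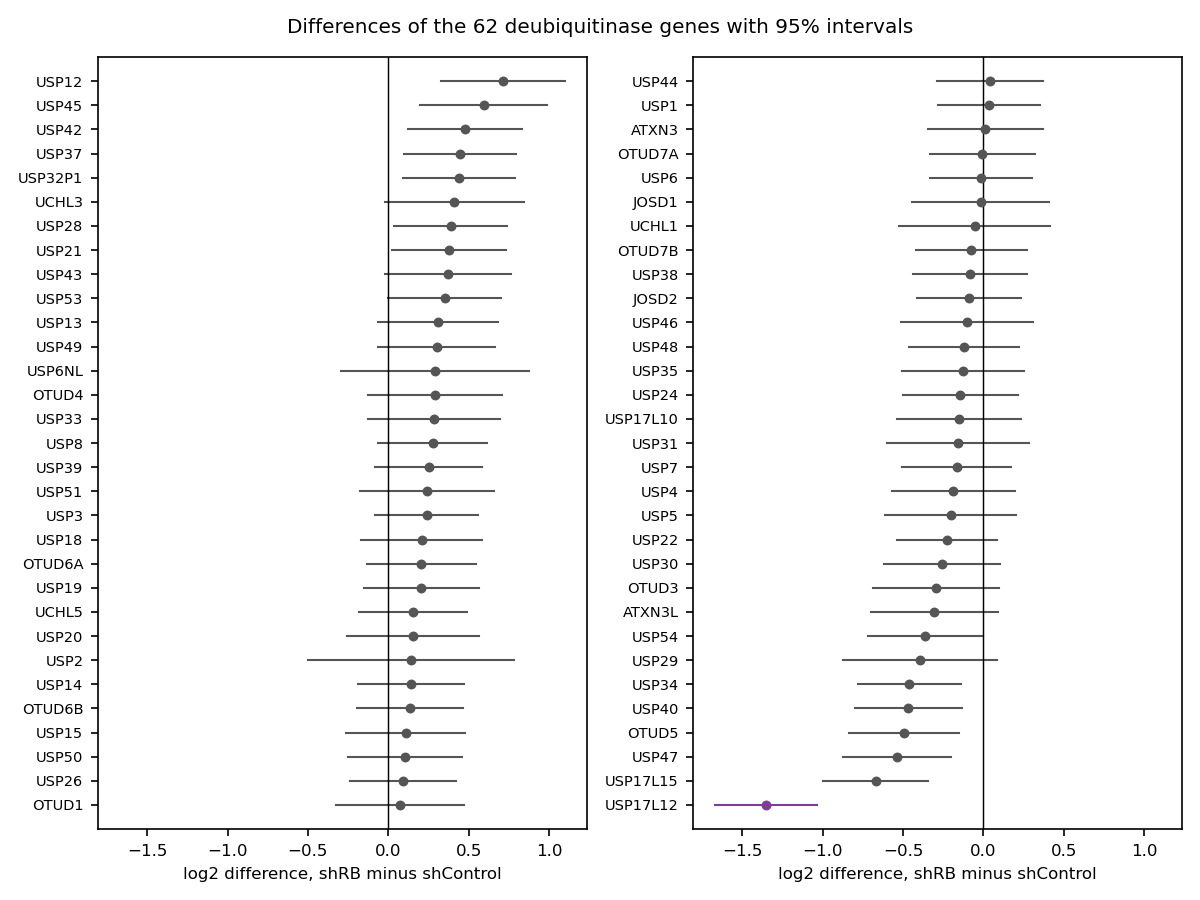
Log2 difference, shRB minus shControl, with its 95% interval from limma for each of the 62 deubiquitinase genes, ordered from the highest (top left) to the lowest (bottom right). USP17L12, in purple, is the 1 gene that passed over all genes, and USP12 has the highest difference, 0.71.

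USP12 and its paralogue USP46 stand in the lists of histone, androgen receptor and WDR48-activated deubiquitinases. USP12 works with WDR48 and WDR20, removes ubiquitin from histones H2A and H2B and is known to stabilise the androgen receptor. USP12 had 5.18, 5.54 and 5.65 in shRB, against 4.84 and 4.64 in shControl. All 3 shRB arrays were higher than both shControl arrays, and the difference was 0.71 (SE 0.17, 95% interval 0.33 to 1.10, 1.64-fold as deposited), which did not pass (limma adjusted p = 0.0807). With 16 subtracted from the intensities and 4 added before the logarithm it stood at 1.11 and did not pass either (adjusted p = 0.165). USP46 stood at -0.10 (SE 0.19), and the partners WDR48 and WDR20 at 0.22 and 0.05, none past the threshold. USP12 lies on chromosome 13, as RB1 does. UCHL3 (0.41) and USPL1 (0.64), described below, lie there too. The 311 named genes of that chromosome had a median difference of 0.05, with 180 positive and 131 negative. Whether the location plays a part in these values was not tested.

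USP1, the other protease that WDR48 activates, releases ubiquitin from FANCD2 and PCNA. It had 6.88, 6.84 and 6.94 in shRB, against 6.91 and 6.79 in shControl, so the groups overlapped. The difference was 0.04 (SE 0.14, 95% interval -0.28 to 0.35). USP22, the protease of the SAGA coactivator complex, had 8.51, 8.51 and 8.45 in shRB, against 8.74 and 8.69 in shControl. Every shRB array was slightly lower, by 0.23 in the mean (SE 0.14, adjusted p = 0.432), which did not pass. USP3, which acts on H2A, had 7.44, 7.38 and 7.34 in shRB, against 7.08 and 7.22 in shControl, again without overlap and without passing (difference 0.24, adjusted p = 0.417). Of 9 measured histone deubiquitinases of 11 listed, 6 were positive and 3 negative with a median of 0.24, and none passed. USP21, another H2A protease, stood at 0.38, USP49, which acts on H2B, at 0.30, USP51 at 0.24 and USP44 at 0.04. Of 7 measured androgen receptor deubiquitinases of 8 listed, 4 were positive and 3 negative, with a median of 0.09 and none past the threshold, and USP26 among them lay near the floor in both groups.

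**Figure D3:**
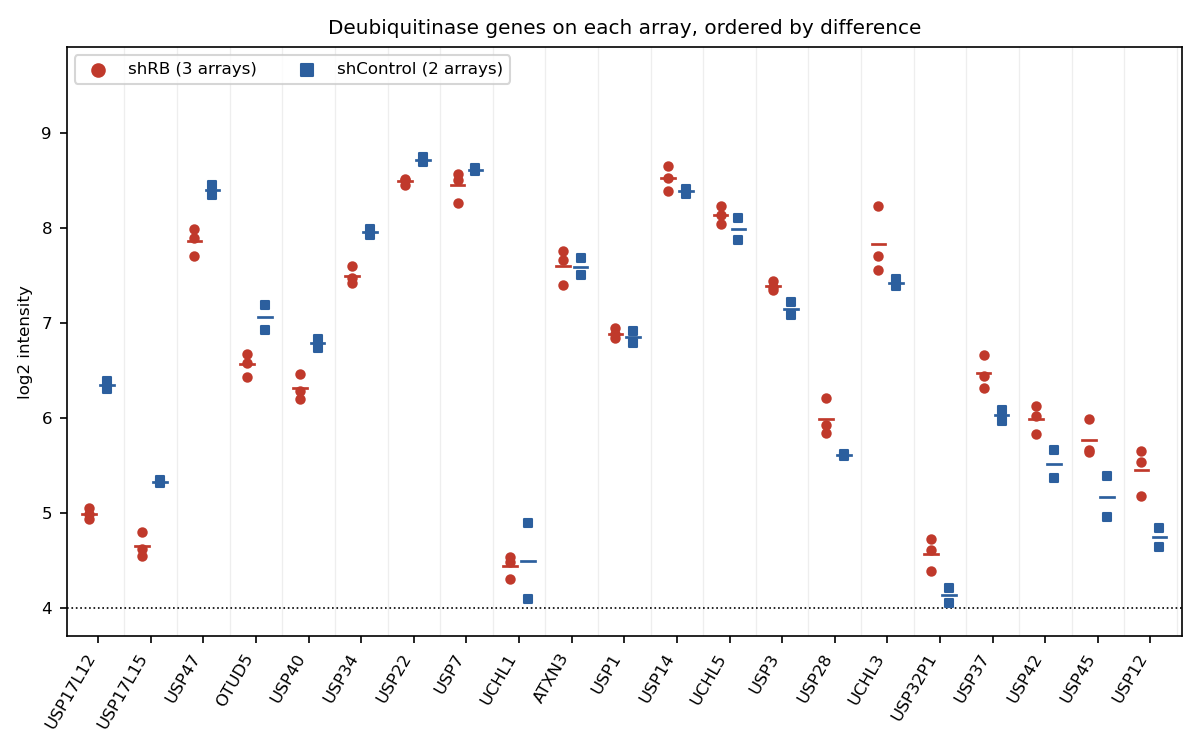
Log2 intensity on each array for 21 deubiquitinase genes, ordered by their difference, with shRB as circles, shControl as squares, group means as short bars and the floor of 4 dotted. The USP17L12 groups are the furthest apart, and the USP12 arrays lie at 5.18 to 5.65 in shRB and 4.64 to 4.84 in shControl.

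Proteases tied to DNA damage, which ionizing radiation causes, gave values in both directions and no call. USP47, which acts on DNA polymerase beta in base excision repair, had 7.89, 7.98 and 7.70 in shRB, against 8.35 and 8.45 in shControl. The groups did not overlap, and the difference of -0.54 (SE 0.15) did not pass (limma adjusted p = 0.108). USP45, which acts on the excision nuclease subunit ERCC1, had 5.99, 5.66 and 5.64 in shRB, against 4.95 and 5.39 in shControl. Its difference was 0.59 (SE 0.18, adjusted p = 0.126), with all shRB arrays higher and the 2 shControl arrays 0.44 apart, and without shControl replicate 1 it was 0.37. USP28, a partner of the break-response protein TP53BP1 and a stabiliser of MYC, had 6.21, 5.92 and 5.84 in shRB, against 5.59 and 5.62 in shControl, a difference of 0.39 that did not pass (adjusted p = 0.232). UCHL3, a hydrolase of the UCH family, had 7.71, 7.56 and 8.23 in shRB, against 7.38 and 7.46 in shControl. The third shRB array stood above the other two, and the difference was 0.41 (SE 0.20, adjusted p = 0.297), or 0.21 without that array. ATXN3, the Josephin protease whose polyglutamine expansion causes Machado-Joseph disease, had 7.65, 7.76 and 7.39 in shRB, against 7.68 and 7.50 in shControl, with a difference of 0.01 (SE 0.16). Of 14 measured members of this list of 17, 10 were positive and 4 negative, with a median of 0.15 and none past the threshold. The others were OTUD4 (0.29), USP51, USP3, USP20 (0.15), UCHL5 and USP1 on the positive side and USP29 (-0.40), USP24 (-0.15) and USP48 (-0.12) on the negative side.

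Among proteases of the MDM2 and p53 pathway, 10 measured of 11 listed, 4 were positive and 6 negative, with a median of -0.16 and none past the threshold. USP7, which stabilises MDM2 and p53, had 8.56, 8.51 and 8.26 in shRB, against 8.62 and 8.60 in shControl. Each shRB array was lower by a small amount, and the difference of -0.17 (SE 0.15, adjusted p = 0.603) did not pass. OTUD5, a protease that restrains interferon induction through TRAF3 and acts on p53, had 6.43, 6.67 and 6.58 in shRB, against 7.18 and 6.93 in shControl. Its groups did not overlap, and the difference was -0.49 (SE 0.16, adjusted p = 0.139). USP42, which acts on p53 early in stress, went the other way, with 5.83, 6.12 and 6.02 in shRB, against 5.66 and 5.37 in shControl (difference 0.48, SE 0.16, adjusted p = 0.162). The rest of the list lay between -0.40 and 0.14, with USP5 at -0.20, USP4 at -0.19, USP15 at 0.11 and OTUD1 at 0.07. USP2, a protease of MDM2 and cyclin D1, differed most between the shControl arrays, with 4.94, 5.36 and 5.46 in shRB, against 5.72 and 4.50 in shControl (difference 0.14, SE 0.29), and a second USP2 probe set lay near the floor in both groups at a difference of -0.02.

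All 9 cell cycle proteases on the list were measured, all 9 differences were positive, between 0.04 and 0.45, and none passed, with a median of 0.25. USP37, which protects cyclin A from the anaphase-promoting complex, had 6.32, 6.43 and 6.66 in shRB, against 5.96 and 6.08 in shControl. The arrays did not overlap, and the difference was 0.45 (SE 0.16, adjusted p = 0.175). USP28 is described above, and USP13 (0.31), USP33 (0.28), USP39, a spliceosome factor without protease activity (0.25), USP19 (0.20), USP2, OTUD6B (0.13) and USP44, a regulator of the spindle checkpoint (0.04), complete the list. Arrays of the groups did not overlap for 4 of the 9. Of the 7975 genes with a positive difference among all genes, 3056 had higher shRB values without overlap. The sign of USP44 turned under quantile normalization, and those of USP2 and USP44 turned when 1 shControl array was left out. Since 53.8% of all genes had positive differences and the list was chosen with results known, the shared sign is given as a description.

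At the proteasome, USP14 and UCHL5 trim chains of arriving substrates. USP14 had 8.65, 8.53 and 8.38 in shRB, against 8.40 and 8.36 in shControl, and UCHL5 had 8.23, 8.14 and 8.04 in shRB, against 7.87 and 8.10 in shControl. The groups overlapped for both, at differences of 0.14 (95% interval -0.19 to 0.47) and 0.15 (-0.18 to 0.49). UCHL1, a hydrolase abundant in neurons, had 4.49, 4.30 and 4.53 in shRB, against 4.09 and 4.89 in shControl. It lay near the floor in both groups (means under 4.5), as did ATXN3L, USP26, USP44 and USP6, so a difference in these 5 could not be seen well. Among the 10 genes of mitochondrial and protein quality control, none passed and the median was 0.08. They include USP30, the mitochondrial outer membrane protease that opposes parkin, at -0.26 (SE 0.16), and USP35 at -0.13.

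Receptor trafficking and signalling proteases, 9 measured of 11 listed, had a median of -0.01, with 4 positive and 5 negative and none past the threshold. USP34, which acts on axin in Wnt signalling, had 7.60, 7.42 and 7.47 in shRB, against 7.92 and 7.99 in shControl. The groups did not overlap, and the difference of -0.46 (SE 0.15, adjusted p = 0.14) did not pass. USP8, an endosomal protease of growth factor receptors, was at 0.28 (SE 0.15), and OTUD7B, whose promoter held the E2F string, at -0.07 (SE 0.16). Of the interferon and innate immunity list, 7 measured of 10, none passed and the median was -0.07. It holds USP18, which removes ISG15, at 0.21, USP38 at -0.08 and OTUD3 at -0.30.

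The lists do not hold 11 of the 62 genes. USP40 had 6.28, 6.46 and 6.20 in shRB, against 6.74 and 6.83 in shControl, without overlap (difference -0.47, SE 0.15, adjusted p = 0.146). The pseudogene USP32P1 had 4.72, 4.61 and 4.38 in shRB, against 4.06 and 4.21 in shControl, close to the floor (difference 0.44, adjusted p = 0.182). USP53, a protein of tight junctions, stood at 0.35 and USP54 at -0.36, each without overlap of the groups and without passing. USP43 (0.37), USP6NL (0.29), USP50 (0.10) and USP31 (-0.16) overlapped between groups, and the other 3 are the USP17L copies. Of the OTU genes, 8 measured of 10 listed, OTUD6A stood at 0.21 and OTUD7A at -0.01. JOSD1 and JOSD2 had differences of -0.02 and -0.09.

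The spread between the 2 shControl arrays limits many of these values. For 32 of the 62 genes (51.6%) the shControl arrays lay further apart from each other than the group means did, against 56.3% of all genes. USP29 shows this, with 4.51, 4.33 and 4.58 in shRB, against 4.46 and 5.28 in shControl. USP6NL had 6.06, 5.72 and 5.91 in shRB, against 6.17 and 5.04 in shControl. Without shControl replicate 1, USP29 and USP6NL passed, at differences of -0.81 and 0.85 (limma adjusted p = 0.0423 for each), against adjusted p = 0.364 and 0.599 with all arrays and up to 0.974 and 0.805 under other settings, so those 2 calls rest on the choice of 1 array.

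**Figure D4:**
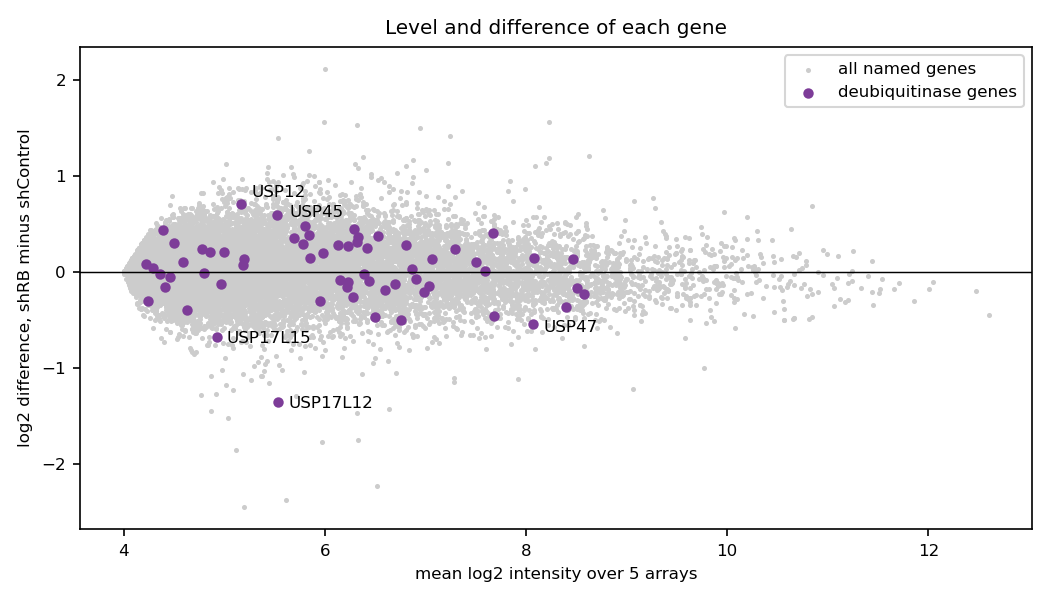
Log2 difference, shRB minus shControl, against the mean log2 intensity over the 5 arrays for all 14812 named genes (grey) and the 62 deubiquitinase genes (purple). Apart from USP17L12 at -1.35, the deubiquitinase genes lie between -0.67 and 0.71, within the cloud of all genes.

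Genes that work with or against these proteases gave no call. Of other deubiquitinases outside the symbol rule, 10 measured of 21 listed, none passed, 8 were positive and the median was 0.20. USPL1, a SUMO protease of Cajal bodies despite its name, stood at 0.64 (limma adjusted p = 0.112) and CYLD, which cuts linear and K63-linked chains, at 0.49 (adjusted p = 0.228). Of 19 measured partner genes of 22 listed, the SAGA subunit ATXN7 stood at 0.52 (adjusted p = 0.143) and G3BP1, which binds USP10, at -0.40 (adjusted p = 0.209). Among 27 ubiquitin-conjugating enzyme genes, 13 were positive and 14 negative, with UBE2NL at 0.65 (adjusted p = 0.0698) and UBE2T, the Fanconi pathway enzyme whose product USP1 reverses, at 0.57 (adjusted p = 0.0967). The activating enzymes UBA6 and UBA1 stood at 0.42 and -0.28, and 3 of 6 listed ubiquitin and activating enzyme genes were measured. Of 15 listed ligases 3 were measured, with the H2A ligase RING1 at 0.43 and SIAH2 at 0.44. Of 7 SUMO and NEDD8 proteases 5 were measured, with SENP8, the NEDD8 protease, at 0.50 (adjusted p = 0.118) and SENP7 at 0.43. By role, the medians of the lists ran from -0.16 for the p53 pathway proteases to 0.43 for the 3 ligases, and no gene of any list passed.

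**Figure D5:**
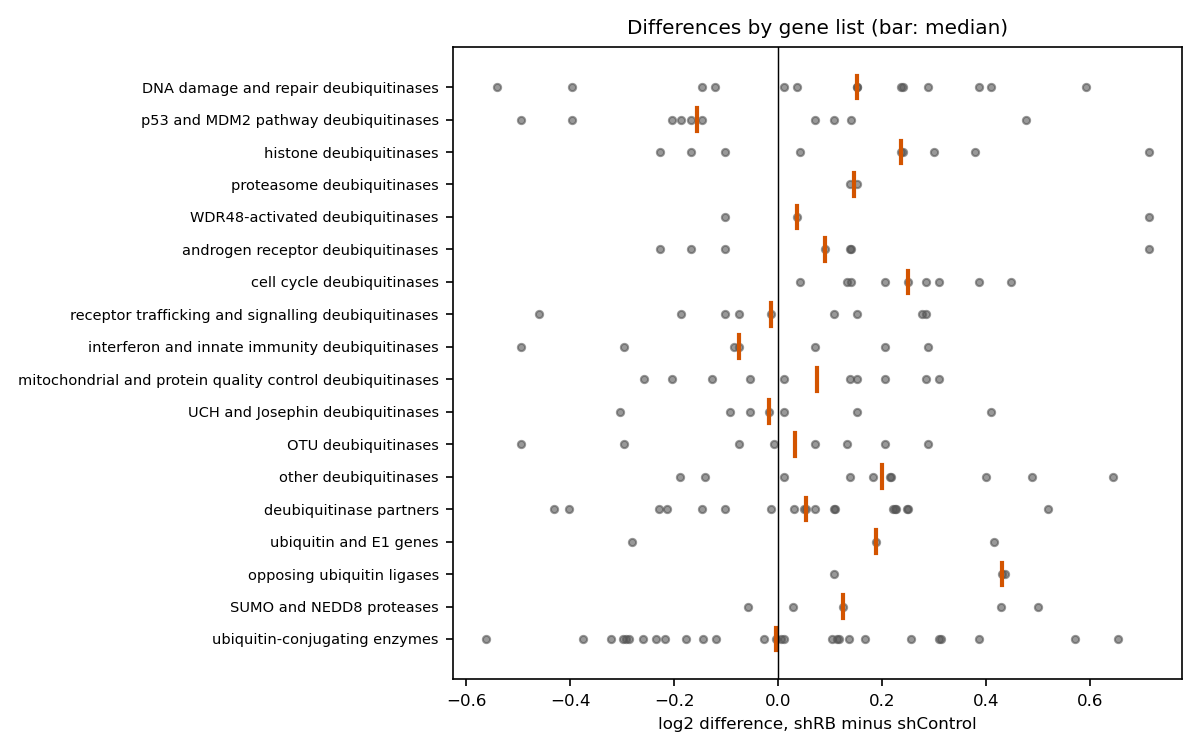
Log2 difference, shRB minus shControl, of each measured gene (points) in 18 gene lists, with the list's median as an orange bar. Genes can stand in several lists, and the point at 0.71 in 3 of them is USP12.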

How the data were processed

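Transcripts were measured on 5 single-colour arrays of biotin-labelled cDNA. The authors deposited linear intensities for each probe set. How these were summarised, background-corrected and normalized, and on which genome build, is not given in the sources used here. The lowest deposited intensity was 16, as an added constant would give, but whether one was added was not tested. If it was, fold changes of dim genes are understated. Array medians ran from 27.38 to 27.95 in shRB and from 26.65 to 28.06 in shControl, and the number of arrays limits the precision.

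Of 44607 probe sets, 15835 had 1 gene symbol in the platform annotation and 0 had several. All 15835 matched the RefSeq table (GRCh38.p14) by Entrez identifier, which updated symbols. For 651 genes with several probe sets, that with the highest mean log2 intensity was kept. Log2 intensities, with no further normalization or filter, were tested with limma 3.58.1 (R 4.3.3; lmFit, eBayes, two-sided, no covariates). P-values were Benjamini-Hochberg adjusted over 14812 genes, with a threshold of 0.05. The test was tested on simulated data with 200 changed genes. It called 30.2% of log2 changes of 0.5 and 98% of changes of 1, with a mean of 12.2 unchanged genes called. A difference near 0.5 that did not pass is thus not evidence of no change. Alternatives covered normalization, centring, the constant, dim genes, probe sets, variances, array weights, pairing, the threshold and each array.

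The members, lists and named genes were chosen with earlier results of these data known. Values on every array are given for the member past the threshold, the 12 with the smallest p and a set chosen whatever their values (USP1, USP3, USP7, USP12, USP14, USP22, USP28, USP37, UCHL1, UCHL3, UCHL5, ATXN3 and the USP17L copies). USP2, USP29 and USP6NL were added after their values were seen, as were WDR48 and WDR20. Of each list outside the members, the 2 genes with the smallest p are named. Promoter windows are those of RefSeq on GRCh38.p14.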

Additional observations from a re-analysis of the deposited data

How the results depend on the processing

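USP17L12 kept its direction in all 14 other fits, at -1.81 to -1.31. Where both shControl arrays were kept it passed, at limma adjusted p-values of 0.000119 to 0.0451, the highest with 16 subtracted and 4 added before the logarithm. These fits reuse the same arrays, so they are not separate tests. The count of deubiquitinase genes called, 1 in the reported fit, was 2 with array medians subtracted (USP17L15 added, adjusted p = 0.0463), 2 with an intensity trend and robust variances (USP47 added, adjusted p = 0.0267) and 3 at a threshold of 0.10 (USP12 and USP17L15 added). Leaving out each array in turn gave 1 to 3 calls, with 3 only without shControl replicate 1, and where 1 shControl array is left it is assumed to vary like the shRB arrays. Over the 13 or 14 other fits, adjusted p-values ran from 0.0463 to 0.23 for USP17L15, 0.0267 to 0.358 for USP47 and 0.0523 to 0.311 for USP12. The setting with 16 subtracted and 4 added moved USP12 to 1.11, USP17L15 to -1.10 and USP32P1 to 1.09, none past the threshold. Quantile normalization, array weights, probe set averages, each probe set on its own and the subtraction of 16 with 4 added gave 1. USP17L12 has 1 probe set, so the 2 probe set settings left its difference at -1.35. The filter on dim genes also gave 1, with 19 of the 62 genes left out, so USP12, USP17L15, USP32P1 and UCHL1 have no value there. That filter used the mean over all arrays. USP17L12 stayed in through its shControl mean of 6.34, against 4.99 in shRB, so its call there adds no support. The median difference of the 62 genes stayed between 0.01 and 0.11. Whether the shared replicate number pairs the arrays cannot be settled with 2 shControl arrays. The correlations of deviations were -0.02 and 0.05. They are not separate checks, since the deviations of the 2 shControl arrays mirror each other. As a replicate block the number gave 1 call, USP17L12 at -1.32 (limma adjusted p = 0.0291). Replicate 3 of shRB has no shControl partner, so each difference in that fit equals the one without that array. In the fits that left no array out, the replicate block included, the sign turned for 7 of the 62 genes, at most 0.075 in size. It turned for 26 when an array was left out. None of these 26 passed the threshold in the reported fit, and all had differences of at most 0.40 in size. Among them, USP17L10 became 0.092, USP29 0.015, USP6NL -0.27 and USP2 -0.47 without shControl replicate 2, UCHL1 became 0.022 with 16 subtracted and 4 added and ran from -0.45 to 0.35 over the fits without an array, ATXN3 became -0.0027 with array medians subtracted and ran from -0.078 to 0.116, and USP1 ran from -0.025 to 0.097; the cause was not tested. Over all genes the calls ran from 13 with 16 subtracted and 4 added to 517 at the threshold of 0.10.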
